A study of Mus musculus with 6 samples.

Results

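The genes described here encode the proteins of the mitochondrial ribosome, the particle that translates the few mRNAs of mitochondrial DNA. They were taken as every row of the count table whose symbol begins with Mrpl or Mrps followed by a number, without the entries marked as pseudogenes and with at least 10 counts summed over the libraries, and the symbol placed each in the large (Mrpl) or the small (Mrps) subunit. This gave 78 genes of the 55491 in the table, 49 of the large and 29 of the small subunit. The rule itself uses the symbol and a count minimum only, and the group was proposed with earlier results of these data known.

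RNA-seq was performed on inguinal white adipose tissue (IWAT) of male C57BL/6J mice at 4 weeks of age on regular chow, with 3 *Ebf2*+/+ mice and 3 *Ebf2* E165X/+ mice and 1 library for each mouse. The E165X/+ mice are heterozygous for a germline knock-in of a nonsense codon in *Ebf2*, made by CRISPR/Cas9 editing, so that every cell of the tissue carries the allele. *Ebf2* encodes a transcription factor of the adipocyte lineage, and the comparison asks how the allele changes the transcriptome of whole IWAT at an age at which, per the study, its structure does not yet differ. The libraries held between 106820505 and 135039488 counts, and each of the 78 genes reached 10 counts in each library, the lowest being 1072 for *Mrps28*, so that the spread between mice and not the depth limited the precision.

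The mitochondrial ribosome is built in the mitochondrial matrix from a large and a small subunit. Its proteins are all made from nuclear genes in the cytosol and imported, while its ribosomal RNAs are transcribed from mitochondrial DNA, so that assembly needs products of both genomes. What it makes are core subunits of the respiratory chain and of ATP synthase, and brown and beige adipocytes, which are rich in mitochondria, depend on these for heat production. Some of its proteins have counterparts in bacterial ribosomes and others arose in the mitochondrial lineage.

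*Ebf2* itself was at 38.3, 41.3, and 37.2 CPM in wild-type mice and at 22.8, 22.9, and 21.1 CPM in the E165X/+ mice, without overlap. Its log2 fold change was -0.81 (SE 0.076, edgeR's quasi-likelihood test, adjusted p = 0.0596 over all 32664 genes tested), and DESeq2 gave an adjusted p of 1.23e-13. CPM are counts scaled to a common library total, after the totals were corrected by TMM, a factor that balances library composition. The third E165X/+ mouse had far more RNA of skeletal muscle markers than the other 5 mice. The summed level of 10 genes of skeletal muscle, of which *Myh4*, a myosin of fast fibers, was the most abundant over the wild-type mice, was 1788, 7362, and 2812 CPM in wild-type mice and 3072, 725.9, and 42410 CPM in the E165X/+ mice. In the same mouse 8 adipocyte markers summed to 10270 CPM, against 14160 to 17790 CPM in the other libraries, and the main counts and medians of the 78 genes are therefore given below also without it. In bulk tissue, fewer cells of a type and less RNA in each cell cannot be told apart.

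mRNAs of the mitochondrial ribosome were slightly lower in E165X/+ IWAT across both subunits, and no single gene passed the adjusted threshold in edgeR. The log2 fold change was below 0 for 76 of the 78 genes, where 43.9% of all genes that reached 10 counts in each library were below 0. The median was -0.15 (0.90-fold), with -0.15 for the large and -0.16 for the small subunit, beside 0.014 for all genes tested, and the interquartile range ran from -0.21 to -0.11. The values lay between -0.42 for *Mrpl34* and 0.097 for *Mrpl36*, and none reached the 1.5-fold change used as a threshold.

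With edgeR's quasi-likelihood test, 0 of the 78 genes had an adjusted p under 0.05, and 0.00918% of all genes tested were called at that threshold with a fold change above 1.5. At an unadjusted p under 0.05, 14 genes were lower and 0 higher, 8 of the large and 6 of the small subunit, which is 17.95% of the list beside 4.21% lower among genes of that depth. DESeq2 gave an adjusted p under 0.05 to 2 genes, *Mrps35* and *Mrpl34*, both lower, beside 1.07% of the genes to which it gave an adjusted p. For 18 genes every E165X/+ mouse was below every *Ebf2*+/+ mouse and for 0 the reverse held, beside 6.78% lower among all genes of that depth. Of these 18, 12 were among the 14. Across the list 20 genes lay more than 2 SE below 0, and another 20 differed by less than 1 SE. The shares of all genes at these 2 bounds were not counted, so that these numbers describe the list only.

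**Figure D1:**
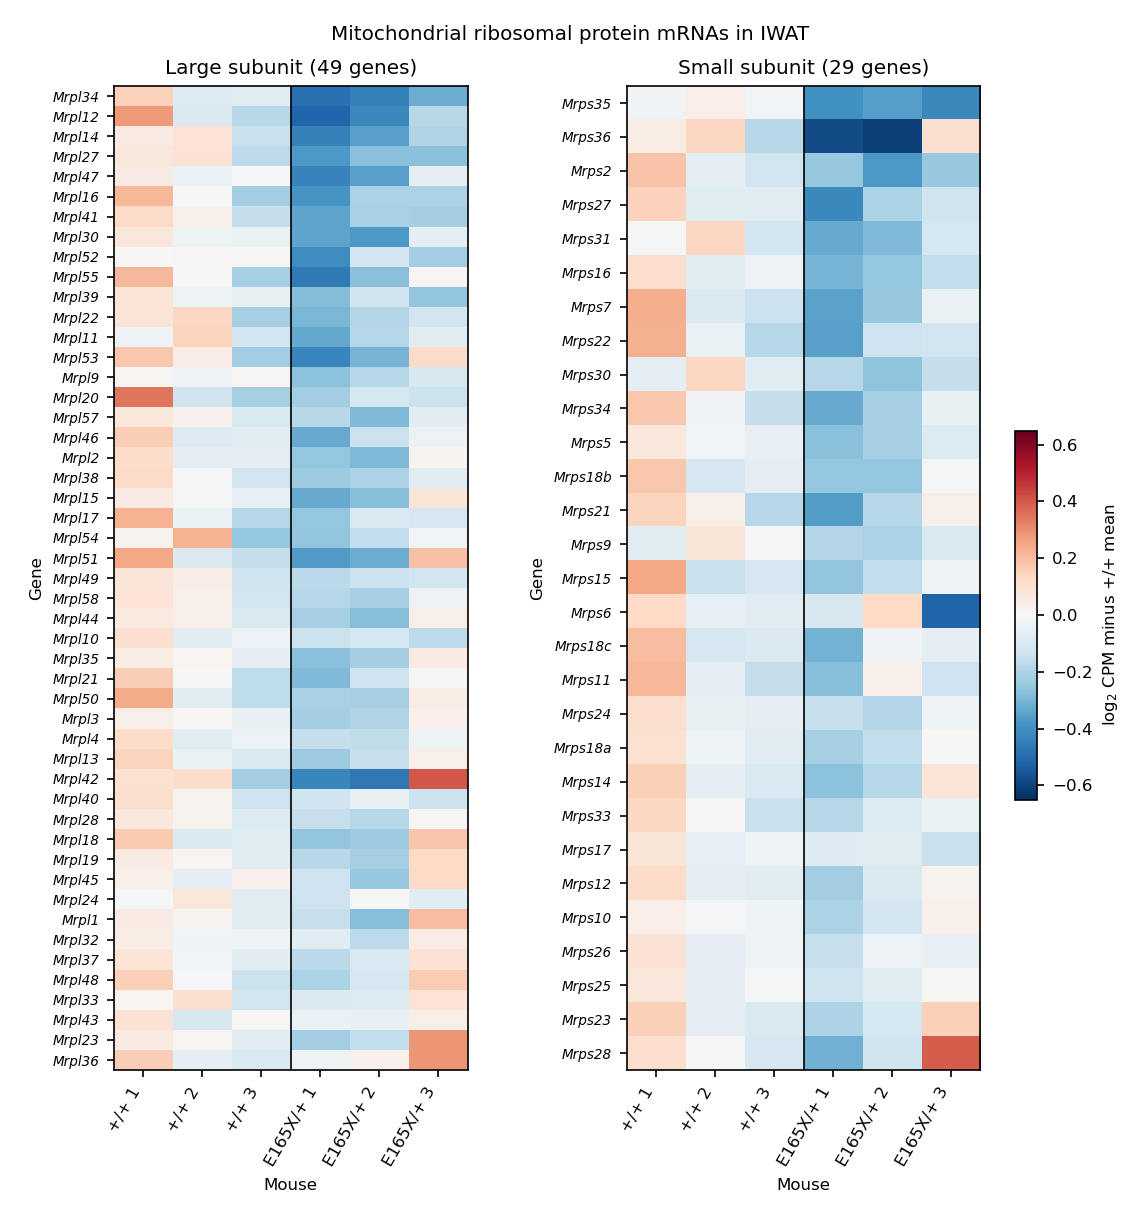
Heat map of the 78 genes (rows, by subunit and ordered by fold change) in the 6 mice (columns). Color gives the log2 CPM of each mouse minus the mean of the 3 *Ebf2*+/+ mice, red above and blue below, and the columns of E165X/+ mice 1 and 2 are below that mean for 78 and 74 genes, while mouse 3 is below it for 46.

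The difference was uneven over the mice, as the heat map of all genes by mouse shows. Averaged over the 78 genes, the log2 CPM minus the wild-type mean came to 0.11, -0.0096, and -0.10 in wild-type mice and -0.26, -0.19, and -0.031 in the E165X/+ mice. E165X/+ mice 1 and 2 therefore lay below all *Ebf2*+/+ mice, and mouse 3 lay within their range. E165X/+ mouse 1 was below every *Ebf2*+/+ mouse for 74 genes, mouse 2 for 60, and mouse 3 for 21, and mouse 3 exceeded every *Ebf2*+/+ mouse for 13 genes. The shares of all genes in these positions were not counted, so that these numbers compare the mice with each other only. The wild-type mice were not alike either, since *Ebf2*+/+ mouse 1 had the highest level of the 6 mice for 51 genes. Together the 78 genes took 0.244%, 0.223%, and 0.211% of the scaled counts in wild-type mice and 0.190%, 0.198%, and 0.222% in the E165X/+ mice.

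Without E165X/+ mouse 3, 36 genes had an unadjusted p under 0.05, all lower, beside 4.89% of genes of that depth, and 60 genes did not overlap between genotypes, all lower, beside 12.8%. The medians were then -0.22 for each subunit, and still no gene had an adjusted p under 0.05 in edgeR. Leaving out *Ebf2*+/+ mouse 3 gave 22 genes with an unadjusted p under 0.05 (28.2% of the list, beside 5.1% of genes of that depth) and a median of -0.23 over the 78 genes. The counts were smaller with each of the other mice left out. They were 9 without *Ebf2*+/+ mouse 1 (11.5% beside 3.04%, median -0.10) and 8 without *Ebf2*+/+ mouse 2 (10.3% beside 3.86%, median -0.17). Without E165X/+ mouse 1 there were 4 (5.13% beside 3.89%, median -0.11) and without E165X/+ mouse 2 there were 5 (6.41% beside 3.33%, median -0.14), so that without E165X/+ mouse 1 the share was near that of all genes. The direction of the list was thus the same in each of these fits, with 70 to 77 genes below 0, while the number of single genes rested on which mouse was left out.

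**Figure D2:**
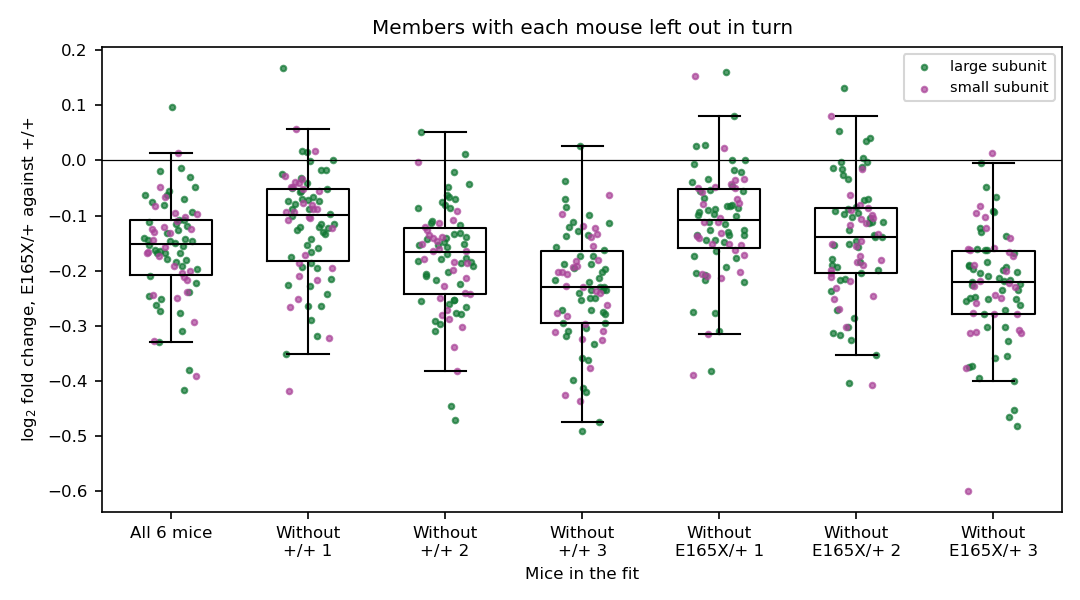
Log2 fold change of E165X/+ against *Ebf2*+/+ for the 78 genes (points, colored by subunit) with all 6 mice and with each mouse left out in turn. Boxes give the median and quartiles and whiskers reach to values within 1.5 interquartile ranges, and the medians run from -0.23 without *Ebf2*+/+ mouse 3 to -0.10 without *Ebf2*+/+ mouse 1.

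Among proteins of the large subunit, *Mrpl34*, the counterpart of a small bacterial ribosomal protein, had the largest decrease. It was at 17.8, 15.1, and 15.3 CPM in *Ebf2*+/+ IWAT and at 11.5, 11.8, and 12.8 CPM in E165X/+ IWAT. The groups did not overlap, with a log2 fold change of -0.42 (SE 0.11, unadjusted p = 0.00501, adjusted p = 0.783 by edgeR and 0.0304 by DESeq2). *Mrpl12*, whose product also binds the mitochondrial RNA polymerase, had the highest mean CPM of the list over the wild-type mice, at 68.1, 52.6, and 49.5 CPM in *Ebf2*+/+ and 39.3, 41.9, and 49.5 CPM in E165X/+ mice. E165X/+ mouse 3 was level with *Ebf2*+/+ mouse 3, so that the groups met, and the log2 fold change was -0.38 (SE 0.14, edgeR unadjusted p = 0.0280), or -0.24 without *Ebf2*+/+ mouse 1, the highest of the 6.

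*Mrpl14* and *Mrpl27*, both with bacterial counterparts, did not overlap between genotypes. *Mrpl14* was at 15.1, 15.4, and 13.1 CPM against 10.7, 11.4, and 12.7 CPM, a log2 fold change of -0.33 (SE 0.11). *Mrpl27* was at 31.3, 31.7, and 26.4 CPM against 22.9, 24.6, and 24.6 CPM, a log2 fold change of -0.31 (SE 0.092). In both, *Ebf2*+/+ mouse 3 was the lowest of its group, and for *Mrpl14* the third E165X/+ mouse came near to it. *Mrpl47* was lower by less, from 15.3 ± 0.52 to 12.6 ± 1.75 CPM (SD, n = 3 each), with mouse 3 at 14.6 CPM just under the lowest *Ebf2*+/+ value of 14.8 CPM, and it shares 616 exon bases with *Ndufb5*, a complex I gene on the opposite strand. *Mrpl16* was at 29.3, 25.3, and 21.7 CPM against 19.3, 21.9, and 21.8 CPM, its groups overlapped, and its log2 fold change of -0.27 was -0.18 without *Ebf2*+/+ mouse 1.

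*Mrpl36* was the only gene of the large subunit above 0. Its levels were 22.5, 19.3, and 18.8 CPM in *Ebf2*+/+ and 19.7, 20.6, and 24.6 CPM in E165X/+ mice, a log2 fold change of 0.097 (SE 0.12), which ran from -0.0054 without E165X/+ mouse 3 to 0.17 without *Ebf2*+/+ mouse 1. The groups overlapped, with E165X/+ mouse 3 the highest of all 6. *Mrpl58*, which acts as a peptidyl-tRNA hydrolase that frees stalled chains, was at 22.8, 21.9, and 19.6 CPM against 18.8, 18.5, and 20.8 CPM, and its groups overlapped too.

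Among the genes with a small-subunit symbol, *Mrps35* gave the clearest separation. It was at 25.8, 27.0, and 25.8 CPM in *Ebf2*+/+ mice and at 19.9, 20.4, and 19.6 CPM in E165X/+ mice. Both groups were tight and mouse 3 was as low as the others, so that the log2 fold change of -0.39 had an SE of 0.071 (unadjusted p = 0.000684, adjusted p = 0.411 by edgeR and 0.000702 by DESeq2). It stayed between -0.43 and -0.38 with each mouse left out. *Mrps2*, the counterpart of a bacterial protein of the same subunit, was at 39.7, 33.4, and 32.0 CPM against 29.4, 26.9, and 29.4 CPM, with no overlap and a log2 fold change of -0.29 (SE 0.098).

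*Mrps27* and *Mrps31* belong to the proteins gained in the mitochondrial lineage. *Mrps27* was at 27.7, 23.7, and 23.7 CPM against 18.7, 21.6, and 22.9 CPM, without overlap, and *Mrps31* was at 20.6, 22.8, and 19.1 CPM against 16.6, 17.0, and 19.2 CPM, where mouse 3 reached into the wild-type range. *Mrps28* was the only gene with a small-subunit symbol above 0, at 12.4, 11.5, and 10.7 CPM against 9.26, 10.5, and 15.2 CPM. Its E165X/+ values spanned the whole *Ebf2*+/+ range, and its log2 fold change of 0.013 (SE 0.19) ran from -0.22 without E165X/+ mouse 3 to 0.15 without E165X/+ mouse 1.

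**Figure D3:**
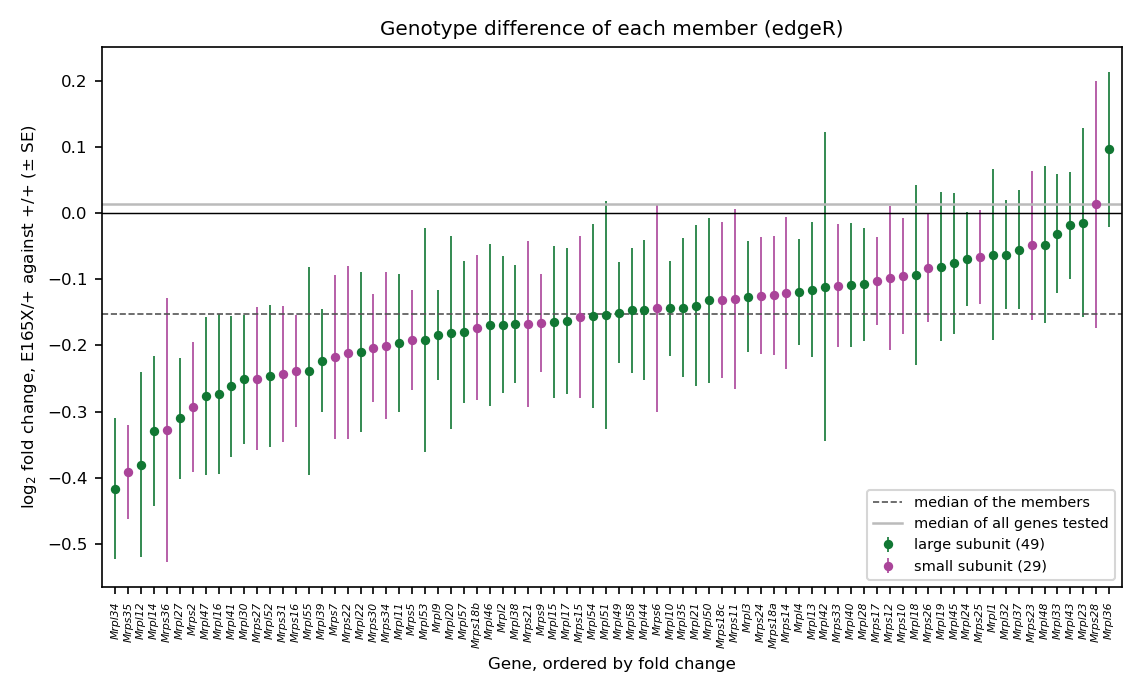
Log2 fold change with its SE for each of the 78 genes, ordered from the lowest (*Mrpl34*, -0.42) to the highest (*Mrpl36*, 0.097) and colored by subunit. The dashed line is the median of the list (-0.15) and the gray line that of all genes tested (0.014), and large- and small-subunit genes alternate along the whole range.

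Some symbols do not match the place of the protein. *Mrps36* is known as a subunit of the 2-oxoglutarate dehydrogenase complex of the citric acid cycle, and the products of *Mrps30* and *Mrps18a* sit in the large subunit. *Mrps36* was at 22.2, 23.6, and 18.9 CPM in *Ebf2*+/+ and at 14.3, 14.1, and 23.1 CPM in E165X/+ mice, so that mouse 3 stood far above the other E165X/+ mice. Its log2 fold change was -0.33 (SE 0.20) with all mice, -0.60 without mouse 3, -0.21 without E165X/+ mouse 1, and -0.20 without E165X/+ mouse 2. *Mrps30* was at 33.6, 38.5, and 33.4 CPM against 30.8, 29.3, and 31.6 CPM, without overlap (log2 fold change -0.20, SE 0.082).

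The 3 paralogs of the S18 family, which take different places in the ribosome, each differed by less than 2 SE. Their log2 fold changes were -0.12 (SE 0.090) for *Mrps18a*, -0.17 (SE 0.11) for *Mrps18b*, and -0.13 (SE 0.12) for *Mrps18c*, and in each the genotypes overlapped. With a mouse left out they ran from -0.19 to -0.080 for *Mrps18a*, from -0.26 to -0.094 for *Mrps18b*, and from -0.20 to -0.040 for *Mrps18c*, the last without *Ebf2*+/+ mouse 1, and without E165X/+ mouse 1 *Mrps18c* was at -0.048. With *Mrps30* and *Mrps18a* counted in the large subunit, its median over 51 genes was -0.15. The 26 small-subunit genes left without these and *Mrps36* had a median of -0.15. Without E165X/+ mouse 3 both medians were at -0.22. They were -0.12 and -0.091 without *Ebf2*+/+ mouse 1 and -0.10 and -0.11 without E165X/+ mouse 1. Split by history with *Mrps36* kept in, the median was -0.14 over 46 genes with a bacterial counterpart and -0.15 over 32 of the mitochondrial lineage. These medians were -0.22 and -0.23 without E165X/+ mouse 3 and -0.091 and -0.11 without *Ebf2*+/+ mouse 1. Among genes with a large-subunit symbol the medians were -0.15 over 30 and -0.15 over 19 genes, or -0.11 and -0.097 without E165X/+ mouse 1. Among genes with a small-subunit symbol they were -0.14 over 16 and -0.20 over 13 genes. These became -0.085 and -0.10 without *Ebf2*+/+ mouse 1. The 13 genes still held *Mrps18a*, *Mrps30*, and *Mrps36*. The differences between these groups were not tested.

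Some genes followed E165X/+ mouse 3 alone. *Mrpl42*, chosen after its values were seen, was at 49.99, 50.8, and 40.1 CPM in *Ebf2*+/+ and at 34.7, 33.8, and 61.8 CPM in E165X/+ mice, the most extreme rise of that mouse over the wild-type mean in the list (log2 0.40). The other E165X/+ mice were both below every *Ebf2*+/+ mouse. *Mrps6* went the other way, at 53.2, 47.0, and 46.2 CPM against 45.3, 53.3, and 33.9 CPM, and its exons overlap those of *Slc5a3*, an inositol transporter gene, and of *Gm49711* on the same strand, so that reads could be split among them. The part of the muscle RNA in mouse 3 in these values was not tested.

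**Figure D4:**
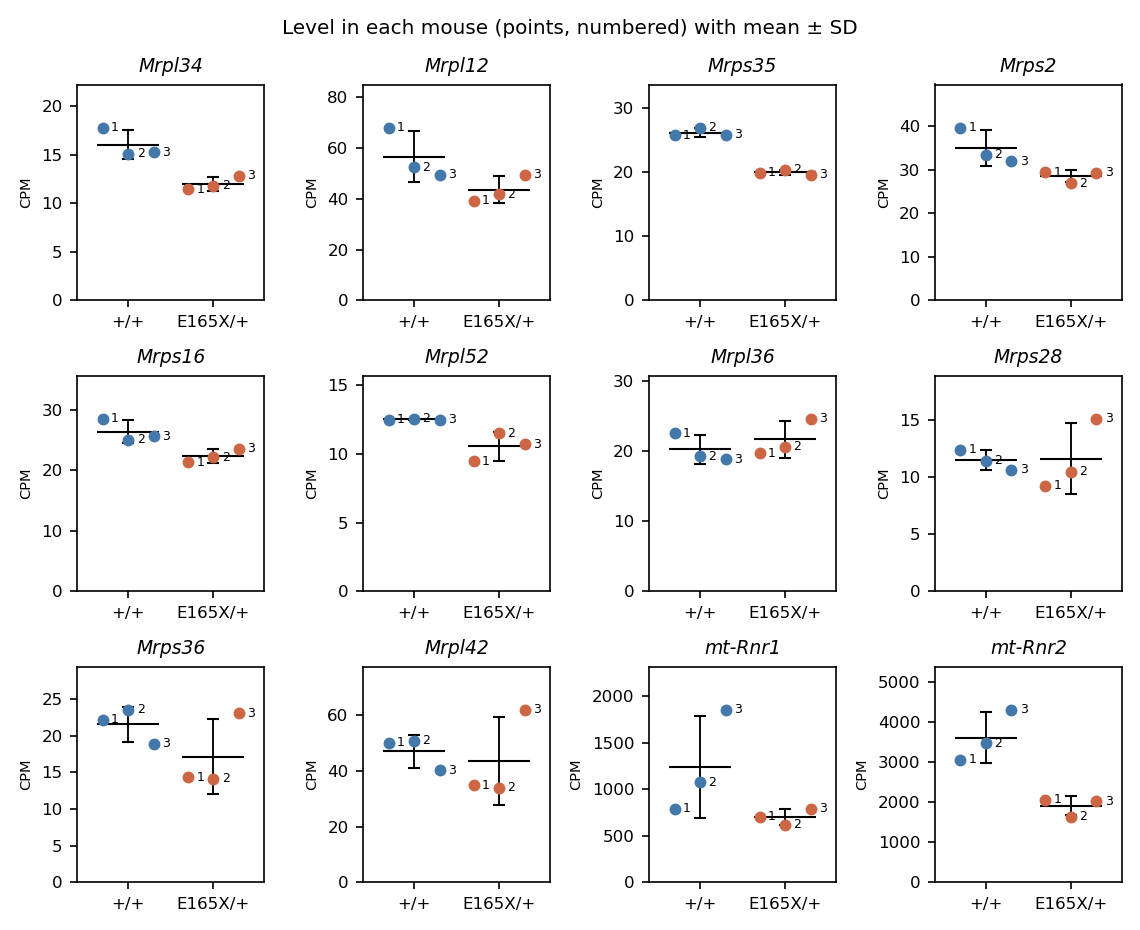
Level in CPM of 10 genes of the list and of the mitochondrial ribosomal RNAs *mt-Rnr1* and *mt-Rnr2* in each mouse (numbered points), with the mean (horizontal line) and SD (bars) of 3 mice per genotype and all axes starting at 0. *Mrps35*, *Mrpl34*, and *mt-Rnr2* separate the genotypes, while for *Mrps28*, *Mrps36*, and *Mrpl42* mouse 3 stands well above the other E165X/+ mice.

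*Ebf2* lies on chromosome 14 (GRCm38, chr14:67233292-67430918), and 3 genes of the list share that chromosome. *Mrps16*, at chr14:20389304-20393634, was at 28.6, 25.1, and 25.7 CPM against 21.4, 22.2, and 23.6 CPM, with no overlap and a log2 fold change of -0.24 (SE 0.084). *Mrpl52*, at chr14:54426909-54429756, was at 12.5, 12.6, and 12.5 CPM against 9.47, 11.5, and 10.7 CPM, with no overlap and a log2 fold change of -0.25 (SE 0.11). *Mrpl57*, at chr14:57826234-57829296, overlapped between the genotypes (-0.18, SE 0.11). Linkage to the edited allele and an effect of the allele cannot be told apart for these 3. The 11 genes on chromosome 11, the chromosome with the most, had a median of -0.17.

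Levels between genes were compared as CPM per kilobase of annotated exon, as means of the *Ebf2*+/+ mice, over exons that add up to between 607 bases for *Mrpl34* and 8631 bases for *Mrps35*. The order is provisional, because the sources name both a kit that reads along transcripts and one that reads only their 3′ ends. On that scale *Mrps21* was the highest, at 45.5 CPM per kilobase, followed in the small subunit by *Mrps6* and *Mrps23*, and *Mrps10* was the lowest of all at 2.68, next to *Mrps35* and *Mrps22*. In the large subunit *Mrpl12*, *Mrpl27*, and *Mrpl18* led, and *Mrpl19*, *Mrpl13*, and *Mrpl47* were at the bottom. Of these, *Mrps21*, *Mrps23*, *Mrps10*, *Mrps22*, *Mrpl18*, *Mrpl19*, and *Mrpl13* overlapped between genotypes, with log2 fold changes between -0.21 for *Mrps22* and -0.048 for *Mrps23*, and each of these 7 moved by over 1.5 times with some mouse left out, *Mrps23* to between -0.16 and 0.023.

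Exons of 33 of the 78 genes overlap those of another annotated gene, mostly on the opposite strand, among them *Mrpl46* and *Mrps11*, which share 173 bases with each other. The strand used in counting is not given in the sources used here, so that these levels may include reads of the neighbor. The pseudogene entries left out of the list held little signal, with at most 177 counts in a library, for *Mrpl23-ps1*.

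The other parts of mitochondrial protein synthesis were examined with lists chosen by function. With a mouse left out, the median of the mitochondrial ribosomal RNAs ran from -1.05 without *Ebf2*+/+ mouse 1 to -0.61 without *Ebf2*+/+ mouse 3. *mt-Rnr2*, the RNA of the large subunit, was at 3054, 3466, and 4307 CPM in *Ebf2*+/+ and at 2066, 1641, and 2021 CPM in E165X/+ mice. The groups did not overlap, with a log2 fold change of -0.92 (SE 0.21, unadjusted p = 0.0025, adjusted p = 0.69 by edgeR and 3.29e-06 by DESeq2). *mt-Rnr1*, the RNA of the small subunit, was at 793, 1077, and 1858 CPM against 706, 620, and 793 CPM, a log2 fold change of -0.82 (SE 0.30) that was -0.43 without *Ebf2*+/+ mouse 3, and its lowest *Ebf2*+/+ value met the highest E165X/+ value. These RNAs carry only short A tails, and how much of them a library holds depends on how RNA was selected.

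The mRNAs that this ribosome translates were also lower. All 13 protein genes of mitochondrial DNA were below 0, with a median of -0.34, 3 lower with an unadjusted p under 0.05 in edgeR (23.1%, beside 4.21% of genes that reached 10 counts in each library) and 10 lower without overlap between genotypes (76.9%, beside 6.78%). The median ran from -0.47 without *Ebf2*+/+ mouse 3 to -0.26 without *Ebf2*+/+ mouse 2. Such a p was given to 6 without *Ebf2*+/+ mouse 3 (46.2%, beside 5.1%) and to 4 without E165X/+ mouse 3 (30.8%, beside 4.89%). Without E165X/+ mouse 2 it was given to 2 (15.4%, beside 3.33%). In the fits without either mouse 3, all 13 genes were lower without overlap (beside 12.8% without E165X/+ mouse 3). The share of all genes without *Ebf2*+/+ mouse 3 was not counted. Among them *mt-Atp8*, a subunit of ATP synthase, was at 477, 514, and 365 CPM against 276, 285, and 311 CPM, and every E165X/+ mouse, mouse 3 included, was below every *Ebf2*+/+ mouse. Its log2 fold change was -0.64 (SE 0.14).

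The 5 ribosomal subunits that have no Mrp symbol lay all below 0, with a median of -0.11, 1 at an unadjusted p under 0.05 (20.0%, beside 4.21%) and 2 without overlap (40.0%, beside 6.78%), all lower. That median rested on single mice, at -0.22 without E165X/+ mouse 3, -0.029 with 3 of 5 below 0 without E165X/+ mouse 1, and -0.057 without *Ebf2*+/+ mouse 1. *Aurkaip1* was the lowest of them, at 47.1, 39.9, and 38.3 CPM against 34.98, 36.2, and 37.0 CPM, without overlap, and its log2 fold change of -0.21 was -0.13 without *Ebf2*+/+ mouse 1. The 25 assembly factors, which modify the ribosomal RNAs or join the subunits, had 19 genes below 0, a median of -0.046, and 2 with an unadjusted p under 0.05, both lower (8.0%, beside 4.21%). For 8 of them every E165X/+ mouse was lower without overlap (32.0%, beside 6.78%) and for 1 higher, and with a mouse left out the median ran from -0.095 without E165X/+ mouse 3 to -0.032 without *Ebf2*+/+ mouse 1, with -0.085 without *Ebf2*+/+ mouse 3. The lowest of them was *Mpv17l2*, at 25.2, 20.4, and 19.2 CPM against 16.0, 17.7, and 16.2 CPM, with a log2 fold change of -0.38 (SE 0.12) and no overlap.

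The list of translation factors, most of which start, extend, or end the chain, also held *Taco1*, *Oxa1l*, *Lrpprc*, and *Slirp*. Of its 15 genes measured 13 were below 0, with a median of -0.12, and 0 had an unadjusted p under 0.05 in edgeR. In 1 the genotypes did not overlap, lower (6.67%, beside 6.78%). The median ran from -0.20 without *Ebf2*+/+ mouse 3, when 2 had such a p (13.3%, beside 5.1%), to -0.066 without *Ebf2*+/+ mouse 1. Without E165X/+ mouse 3, 3 had such a p (20.0%, beside 4.89%), and 10 were lower without overlap (66.7%, beside 12.8%). The count without overlap was 8 (53.3%) without *Ebf2*+/+ mouse 3, where the share of all genes was not counted. It was 1 or 2 with each other mouse left out. *Mtrfr* of that list was not among the genes tested. Of 17 mitochondrial aminoacyl-tRNA synthetases, 13 were below 0, with a median of -0.097 and 4 at an unadjusted p under 0.05, all lower (23.5%, beside 4.21%), and 6 did not overlap, lower (35.3%, beside 6.78%). The median was -0.16 without *Ebf2*+/+ mouse 3 and between -0.11 and -0.086 with each other mouse left out, and without E165X/+ mouse 1 or mouse 3 only 1 had such a p. *Fars2*, which charges phenylalanine, was at 25.7, 25.3, and 24.3 CPM against 21.1, 21.5, and 21.0 CPM, and the groups did not overlap. *Lars2*, which charges leucine, was at 301, 302, and 1609 CPM against 289, 299, and 150 CPM, a log2 fold change of -1.58 (SE 0.67) that was -0.32 without *Ebf2*+/+ mouse 3. Its groups did not overlap, but *Ebf2*+/+ mouse 3, also the highest of the 6 mice for *mt-Rnr1* and *mt-Rnr2*, stood far above the rest.

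Of 9 genes that encode regulators of nuclear genes for mitochondria, *Ppargc1b* and *Esrra*, a coactivator and its nuclear receptor partner, had an unadjusted p under 0.05 in edgeR, both lower (22.2%, beside 4.21%). The median of the 9 was -0.056, and without E165X/+ mouse 2 it was 0.00026. *Ppargc1b* was at 9.25, 9.41, and 9.30 CPM against 5.83, 7.35, and 7.52 CPM, without overlap, and *Esrra* was at 50.8, 41.4, and 45.1 CPM against 34.8, 35.2, and 42.0 CPM, where mouse 3 reached above the lowest *Ebf2*+/+ value. *Nrf1* and *Gabpa*, which encode factors that bind promoters of many such genes, had log2 fold changes of 0.088 (SE 0.069) and -0.056 (SE 0.071), and *Yy1* had 0.050 (SE 0.069). With a mouse left out, *Nrf1* ran from 0.048 to 0.095, *Gabpa* from -0.097 to -0.027, and *Yy1* from 0.0060 to 0.065.

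Cytosolic ribosomal proteins, which form the ribosome that translates nuclear mRNAs, were near 0 as a list. Of 85 genes 31 were below 0, with a median of 0.025, which ran from -0.026 to 0.060 with a mouse left out, and 3 had an unadjusted p under 0.05, all lower (3.53%, beside 4.21%). The number below 0 rested on single mice. It was 54 without *Ebf2*+/+ mouse 1, 50 without E165X/+ mouse 3, and 18 without E165X/+ mouse 1. The mean of this list relative to the *Ebf2*+/+ mean was -0.070, -0.010, and 0.10 on the log2 scale in the E165X/+ mice, against -0.058, 0.0070, and 0.051 in the *Ebf2*+/+ mice. The list was taken by symbol, so these means include *Rpl3l* and *Rpl10l*, its highest and lowest genes. *Rpl3l* had a log2 fold change of 2.005, or -0.94 without E165X/+ mouse 3, and *Rpl10l* had -2.69. The nuclear subunits of oxidative phosphorylation had a median of -0.33 over 80 genes, 76 below 0, 40 with an unadjusted p under 0.05, all lower (beside 4.21%), and 24 lower without overlap (beside 6.78%). The median ran from -0.47 without E165X/+ mouse 3, when 70 had such a p (87.5%, beside 4.89%), to -0.26 without E165X/+ mouse 1, when 17 had (21.25%, beside 3.89%). Their means relative to the *Ebf2*+/+ mean were -0.48, -0.51, and -0.028 in the E165X/+ mice, so that mouse 3 was again the highest of its group and lay within the wild-type range of -0.17 to 0.12. The difference between these lists was not tested.

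**Figure D5:**
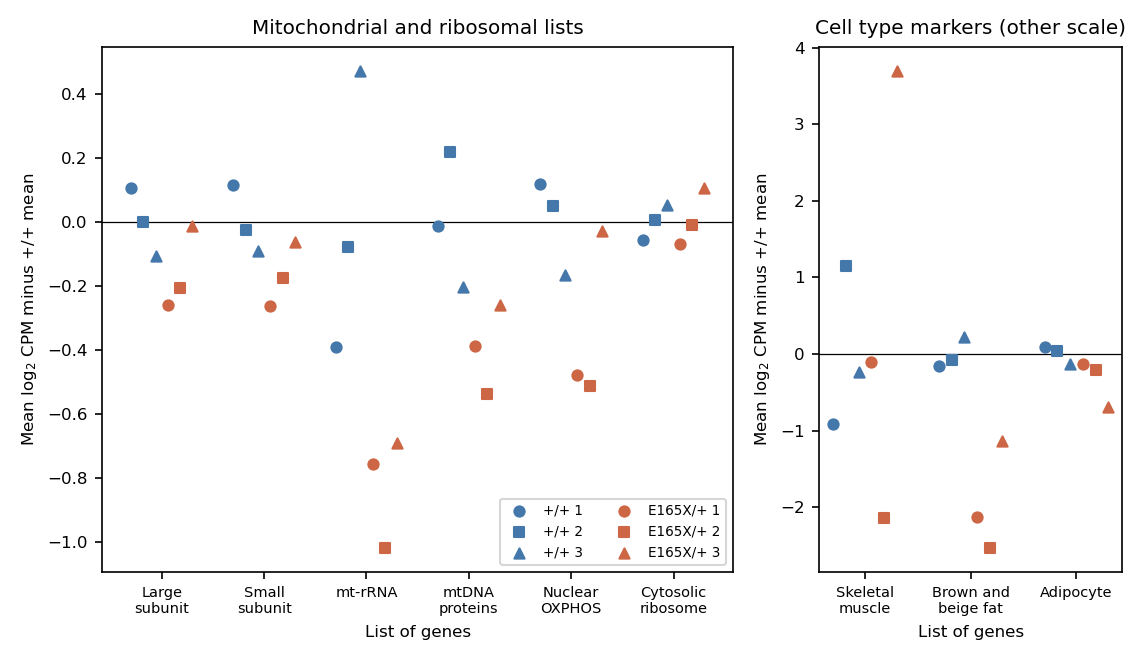
Mean log2 CPM of each list in each mouse relative to the mean of the *Ebf2*+/+ mice (blue, *Ebf2*+/+; orange, E165X/+; symbols give the mouse number). E165X/+ mouse 3 lies near or within the wild-type range for both ribosomal subunits and nuclear oxidative phosphorylation (OXPHOS) genes, lies below it for mitochondrial ribosomal RNA and for proteins of mitochondrial DNA (mtDNA), and is 3.70 above the wild-type mean for muscle markers on the second scale.

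Markers of cells in the tissue were set beside these values. The 8 markers of brown and beige adipocytes, of which *Cidea* was the most abundant in wild type, were all below 0, 4 with an unadjusted p under 0.05 in edgeR (beside 4.21%), a count that was 6 without E165X/+ mouse 3 (beside 4.89%) and 3 or 4 with each other mouse left out. *Cidea* was at 82.4, 102.5, and 105.8 CPM in *Ebf2*+/+ and 7.97, 9.61, and 13.2 CPM in E165X/+ mice, and *Ucp1*, the uncoupling protein that defines these cells, was at 10.9, 21.3, and 33.0 CPM against 0.259, 0.264, and 0.617 CPM. Both were low in all 3 E165X/+ mice. The whole list summed to 182, 255, and 247 CPM against 46.0, 46.1, and 158 CPM, and in E165X/+ mouse 3 *Cpt1b*, which encodes the carnitine palmitoyltransferase of muscle and brown fat, gave 71.6 CPM of that sum. All 8 adipocyte markers were below 0 with *Fabp4* the most abundant, 0 had an unadjusted p under 0.05, and 1 did not overlap, lower (12.5%, beside 6.78%). Their median of -0.28 was -0.43 without E165X/+ mouse 1 and -0.17 without E165X/+ mouse 3. The defining adipocyte marker *Adipoq* was at 1190, 1303, and 1199 CPM against 1172, 1054, and 820 CPM. E165X/+ mouse 3, with the most muscle RNA, had the highest mean of the ribosomal list among the 3 E165X/+ mice. The part of muscle RNA or of brown and beige cells in the ribosomal values was not tested.

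Of the other markers, the medians were 0.072 for adipocyte progenitors, 0.11 for macrophages, 0.21 for T cells, and -0.22 for endothelial cells. These rested on single mice. Without *Ebf2*+/+ mouse 2 the medians were -0.072 for progenitors and -0.027 for macrophages. The T cell median was 0.051 without *Ebf2*+/+ mouse 1, and the endothelial median was -0.13 without E165X/+ mouse 3. With all 6 mice, among these 4 lists the only gene with an unadjusted p under 0.05 in edgeR was *Trac* of the T cell list, lower. Without overlap between genotypes, 2 of 5 endothelial markers were lower (40.0%, beside 6.78%). Their part in the ribosomal values was not tested. Markers of epithelium varied widely within each genotype, with sums of 69.5, 1.93, and 34.5 CPM against 27.7, 1.55, and 5.81 CPM, most of it *Krt5* and *Krt14* in the 3 libraries with the highest sums, while 10 of 10 muscle markers were above 0 (median 1.95) with 0 at an unadjusted p under 0.05. Without E165X/+ mouse 3 this turned over, with 10 of 10 muscle markers below 0 and a median of -1.04.

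Promoter sequences from RefSeq (GRCm38.p6, 250 bases before to 50 bases after each annotated start) were found for 69 of the 78 genes. They were searched on both strands for short motifs of factors known for such promoters, and a gene counted once if any of its windows held the letters. The core of ETS factors, CCGGAAG, which GABP binds, was found for 26 of 69 genes (37.7%), 15 of the large and 11 of the small subunit, against 9.93% of all genes with a promoter entry and 17.25% of those reaching 10 counts in each library. The YY1 letters AAGATGGC were found for 12 genes (17.4%, against 3.19% and 4.52%), and the NRF1 letters GCGCANGCG for 16 (23.2%, against 7.03% and 12.99%). At least 1 of these 3 was present for 44 genes (63.8%, against 17.8% and 30.1%). The TATA box letters TATAAA were found for 5 (7.25%, against 15.7% and 9.69%), centered at -187 to -65 bases from the annotated start.

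The letters CCCNNGGG, the palindrome that EBF factors bind, were found for 5 of 69 genes (7.25%), against 15.4% of all genes with an entry and 20.9% of those reaching 10 counts in each library. The ERR letters TCAAGGTCA were found for 0 of 69, against 0.466% of all genes with an entry and 0.326% of those reaching 10 counts in each library. At such low shares, 0 of 69 says little. Median log2 fold changes of genes with and without a motif were -0.15 and -0.15 for the ETS core, -0.12 and -0.17 for YY1, -0.17 and -0.14 for NRF1, and -0.11 and -0.15 for CCCNNGGG, differences that were not tested. A match is a description of the letters and not evidence of binding.

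The 250 bases before the start are shown for 4 genes with values above, to show the matches in their context. Capitals mark the matches, which are NRF1 letters read from the opposite strand in *Mrpl12* (chr11:120484387-120484636, plus strand), the ETS core in *Mrpl34* (chr8:71464676-71464925, plus strand) and on the opposite strand in *Mrps27* (chr13:99344536-99344785, plus strand), and in *Mrpl36* (chr13:73330759-73331008, plus strand), the gene with the highest fold change, first CCCNNGGG letters and then YY1 letters on the opposite strand.
Mrpl12: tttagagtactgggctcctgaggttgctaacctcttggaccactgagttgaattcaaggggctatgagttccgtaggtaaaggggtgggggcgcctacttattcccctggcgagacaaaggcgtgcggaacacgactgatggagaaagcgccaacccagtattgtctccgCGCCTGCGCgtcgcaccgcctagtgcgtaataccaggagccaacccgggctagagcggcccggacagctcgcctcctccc
Mrpl34: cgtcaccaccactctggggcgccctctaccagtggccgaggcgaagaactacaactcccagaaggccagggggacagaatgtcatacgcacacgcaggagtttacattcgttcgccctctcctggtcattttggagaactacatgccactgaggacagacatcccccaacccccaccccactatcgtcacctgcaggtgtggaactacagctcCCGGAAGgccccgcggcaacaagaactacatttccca
Mrpl36: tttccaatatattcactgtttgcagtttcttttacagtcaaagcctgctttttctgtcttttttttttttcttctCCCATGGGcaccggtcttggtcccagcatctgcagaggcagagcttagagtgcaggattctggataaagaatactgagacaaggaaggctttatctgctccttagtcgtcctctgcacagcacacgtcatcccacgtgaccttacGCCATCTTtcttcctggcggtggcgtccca
Mrps27: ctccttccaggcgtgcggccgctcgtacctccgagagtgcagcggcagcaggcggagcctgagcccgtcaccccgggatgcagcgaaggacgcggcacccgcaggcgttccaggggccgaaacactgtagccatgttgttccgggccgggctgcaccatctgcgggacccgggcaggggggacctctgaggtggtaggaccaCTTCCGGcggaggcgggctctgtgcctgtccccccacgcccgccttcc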

How the data were processed

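The authors deposited 1 table of expected counts per gene, made per the labels from reads trimmed with cutadapt 4.8 and processed with STAR 2.7.8a and RSEM 1.3.3 on GRCm38, after FastQC 0.11.8 and MultiQC 1.20. All values were whole numbers, and they are not scaled for library size. The labels name an NEB kit and the supplement 3′ mRNA libraries with Ensembl annotation of a later release, and the strand used in counting is not given in the sources used here. Libraries were assigned by their labels, and p-values measure the spread between mice.

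In R 4.3.3, the 32664 genes with a count of 1 or more somewhere were fitted with edgeR 4.0.16 (TMM, glmQLFit and glmQLFTest) on genotype alone. Benjamini-Hochberg adjustment covered all of them, and a call needed an adjusted p under 0.05 with a fold change above 1.5. SEs of log2 fold changes are the unshrunken coefficient divided by the root of the F statistic, and log2 CPM used a prior count of 2. The count fits were tested on simulated data with changes larger than any in the list, so that the test does not cover changes of the size seen here. Alternatives were DESeq2 1.42.0, which the authors used, limma 3.58.1 (voom), other size factors and filters, a block for the replicate number, and leaving out each mouse. Exon lengths and overlaps came from GENCODE annotation of GRCm38, and matplotlib 3.10.9 drew the plots.

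The genes, the lists of pathways and markers, and the tests were chosen with earlier results of these data known, so that lists were described by counts and medians without a test. Genes named with values were, in each subunit, the 6 with the largest absolute fold change, those above 0, those on the chromosome of *Ebf2*, those with a known different role or place, and the 3 highest and 3 lowest per kilobase. From the other lists, genes were named after their values were seen. The results of 2 further marker lists are not reported here.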

Additional observations from a re-analysis of the deposited data

How the results depend on the processing

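The 78 genes kept their direction as a list under every alternative run, with 76 to 77 below 0 under other tests, scalings, and filters and 70 to 77 with each mouse left out. The median stayed between -0.17 and -0.15 for the large and between -0.18 and -0.16 for the small subunit under the former, and between -0.23 and -0.10 and between -0.23 and -0.094 with a mouse left out. Counts of single genes moved more. DESeq2 called 98 genes in all with independent filtering and 92 without, against 3 by edgeR, and leaving out a mouse gave 1 to 11. Of the 78 genes, DESeq2 gave 2 an adjusted p under 0.05 with independent filtering (*Mrps35* and *Mrpl34*) and 1 without, and the cause was not tested. Leaving out a mouse gave 4 to 36 genes with an unadjusted p under 0.05 in edgeR and 18 to 60 without overlap, with the highest of both without E165X/+ mouse 3. Signs changed under at least 1 alternative for 12 of the 78 genes, 11 of them only with a mouse left out, and 4 of the 12 are among the genes named by the rule. *Mrps28* was at -0.011 with limma-voom, -0.0028 without the mitochondrially encoded genes, -0.0065 with 10 or more counts in every library, -0.017 with the replicate block, and between -0.22 and 0.15 with a mouse left out, including -0.0027 and -0.062. The range with a mouse left out was -0.0054 to 0.17 for *Mrpl36*, -0.16 to 0.023 for *Mrps23*, with 0.018 among them, and -0.30 to 0.014 for *Mrps6*.

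The genotypes share replicate numbers 1 to 3, and with the number as a replicate block 2 genes were called in all, 4 of the 78 had an unadjusted p under 0.05, all lower (5.13%, beside 3.78% lower among genes with 10 or more counts in every library), and 77 were below 0. The deviations of same-numbered mice correlated at 0.153, -0.278, and -0.162, and those of mice with different numbers at -0.317 to 0.395. With 3 mice per genotype, these values cannot show whether the mice were paired. The results above were fitted without the block. Library totals of at least 106820505 counts make the counting error small beside the spread between 3 mice per genotype.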
